A study of Mus musculus with 15 samples.

Results

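Goblet cells are the mucus-secreting cells of the intestinal lining, and 7 genes of their secretory products and programme were followed here in mouse large intestine: Muc2, Tff3, Spink4, Fcgbp, Agr2, Clca1 and Spdef. They were chosen by name, as known mucin, trefoil and secretory genes of this cell, but with earlier results of these data known. All 7 are among the 11506 genes that were tested. RNA was sequenced from 15 libraries in 5 groups of 3, all from male C57Bl/6 mice aged 4 weeks. Every group, the controls included, was gavaged with a Chremophor EL solution (spelled as in the labels) that held 10% DMSO, on 3 consecutive days, 24 h apart, and the intestine was collected 12 h after the final gavage. Cymopol was dosed at 1.4 mmol/kg (high, replicates 11, 12 and 14) or 0.3 mmol/kg (low, replicates 33, 34 and 35). Mice given the non-polar extract of the alga received 1.0 g/kg (high, replicates 21, 23 and 25) or 0.3 g/kg (low, replicates 26, 27 and 29). The vehicle group received the solvent alone (replicates 2, 4 and 5). Cymopol is a brominated hydroquinone from the green alga Cymopolia barbata, and the design asks how each preparation, at each dose, alters intestinal transcripts. Nothing in the labels says that 3 libraries mean 3 mice, so a p-value here reflects only how much these samples spread, which may be technical. Whole tissue was used, so fewer goblet cells and less RNA per goblet cell cannot be told apart.

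In the colon, goblet cells store gel-forming mucin in granules and release it as the mucus that keeps bacteria away from the epithelium. MUC2 is the polymer of that gel, and AGR2 is a protein disulfide isomerase of the endoplasmic reticulum needed to make it. FCGBP, CLCA1, TFF3 and SPINK4 are secreted with the mucin, and SPDEF is a transcription factor that drives goblet cell maturation.

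The transcripts differ greatly in length, and this matters for how many sequenced fragments stand behind each value. Exons of the gene cover 10497 bases for Fcgbp, 7127 for Muc2, 3777 for Clca1, 2305 for Spdef, 1291 for Agr2, 493 for Tff3 and 477 for Spink4. Tff3 lies on the minus strand at chr17:31125306-31129646 and Spink4 on the plus strand at chr4:40920052-40931395 (GRCm38). Their whole coding sequences are shown because the results below turn on Tff3, and Spink4 is the other short member. Both come from GENCODE M21, and capitals mark the in-frame codons TGT and TGC, which encode cysteine. Tff3 holds 7 of them in 82 codons (3 exons). Spink4 holds 6 in 87 codons (4 exons). Cysteine pairs hold together the trefoil fold of TFF3 and the Kazal fold of SPINK4.
Tff3: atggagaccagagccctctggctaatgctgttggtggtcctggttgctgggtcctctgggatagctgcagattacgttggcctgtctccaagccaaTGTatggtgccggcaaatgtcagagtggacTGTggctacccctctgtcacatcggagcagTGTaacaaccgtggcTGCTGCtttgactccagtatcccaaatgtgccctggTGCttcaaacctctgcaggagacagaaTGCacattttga
Spink4: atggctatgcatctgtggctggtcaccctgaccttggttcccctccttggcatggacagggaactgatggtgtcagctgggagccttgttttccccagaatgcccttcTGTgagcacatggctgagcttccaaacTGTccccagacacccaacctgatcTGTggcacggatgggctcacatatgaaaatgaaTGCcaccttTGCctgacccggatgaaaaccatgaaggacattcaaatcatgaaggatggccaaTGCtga

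Tff3 stood apart from the other members. It was listed at 72.3, 139 and 103 FPKM (fragments scaled for transcript length and for library size) in the high-dose cymopol libraries, given here as elsewhere in the order of the replicate numbers. Low-dose cymopol had 40.3, 133 and 96.1 FPKM, high-dose extract 55.0, 216 and 55.5 FPKM, and low-dose extract 0, 91.9 and 54.8 FPKM. The vehicle libraries had 0.406, 8.42 and 0 FPKM. Every library of both cymopol doses and of high-dose extract was therefore above every vehicle library, while low-dose extract replicate 26, at 0, was not. Of all genes tested, 19.5% were higher without overlap with high-dose cymopol, 3.88% with low-dose cymopol and 19.3% with high-dose extract. In order of group means, high-dose extract had 108.8 ± 92.8 FPKM, high-dose cymopol 104.7 ± 33.2, low-dose cymopol 89.7 ± 46.5, low-dose extract 48.9 ± 46.2 and the vehicle 2.94 ± 4.75 (SD, n = 3 each). Neighbours in that order overlapped in every case, low-dose extract and the vehicle included.

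**Figure D1:**
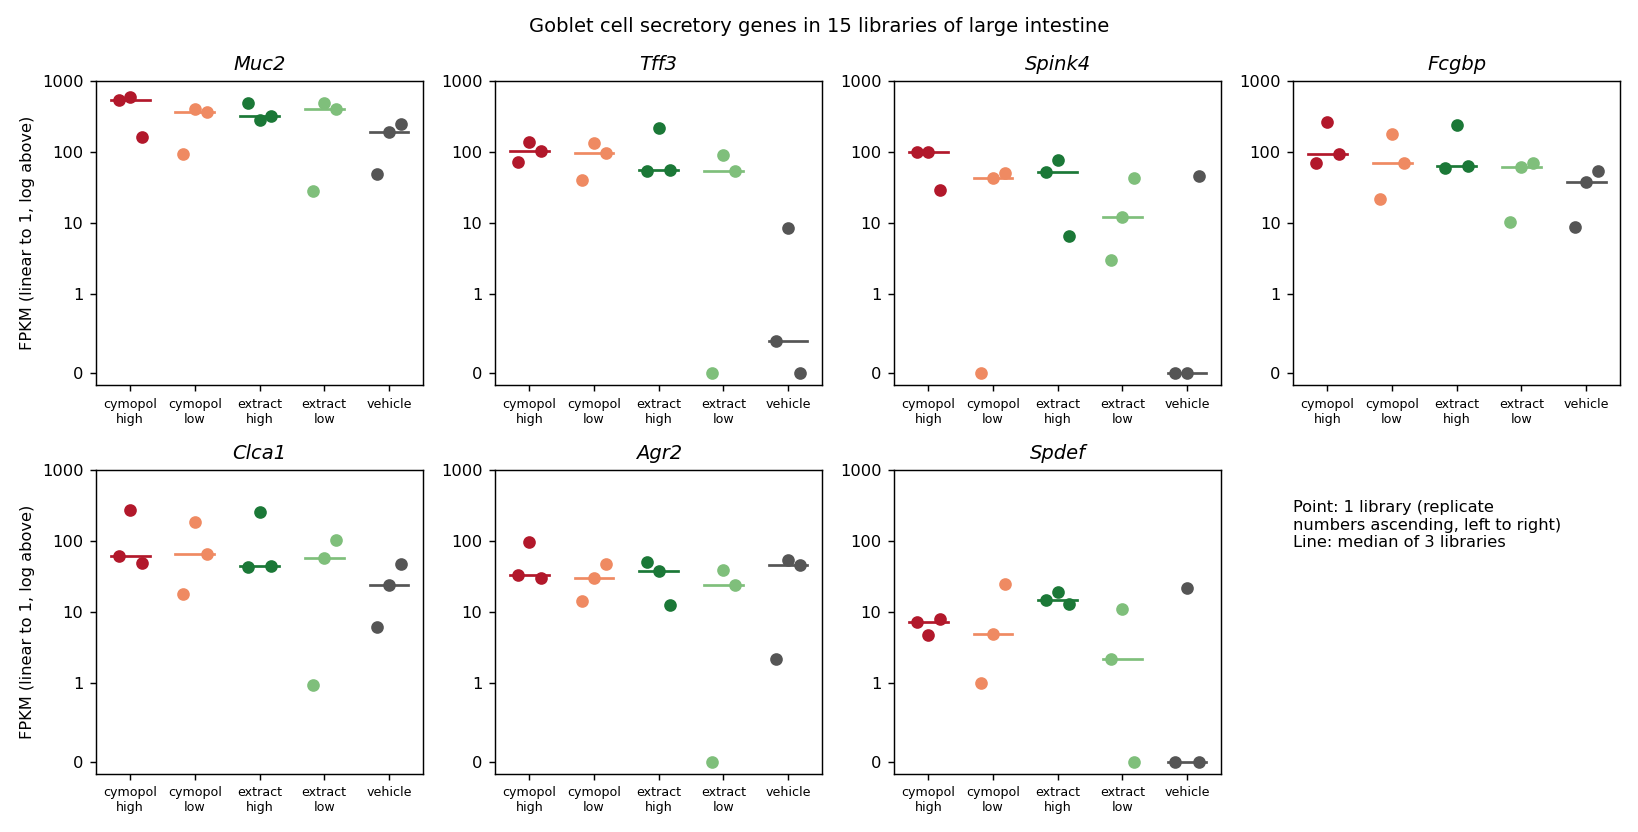
FPKM of the 7 genes (vertical axis, linear up to 1 and logarithmic above) in each library, by group along the horizontal axis, with 1 point per library and a line at the median of 3. Tff3 is at 40.3 or more in all 9 libraries of the cymopol doses and high-dose extract and at 8.42 or less in the vehicle libraries, whereas the other genes overlap between most groups.

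The difference in Tff3 was tested on log2(FPKM + 1), in which a difference understates the change of a gene near 0. The log2 difference from the vehicle was 5.43 ± 1.41 (SE) for high-dose cymopol, 5.10 ± 1.41 for low-dose cymopol, 5.22 ± 1.41 for high-dose extract and 2.87 ± 1.41 for low-dose extract. With limma and Benjamini-Hochberg adjustment over 11506 genes, the adjusted p was 0.190, 0.496, 0.269 and 1 in that order, so Tff3 did not pass the threshold of 0.05 in any of the 4. Few genes did, namely 2 genes (0.0174%) for high-dose cymopol, 0 (0%) for low-dose cymopol, 1 (0.00869%) for high-dose extract and 0 (0%) for low-dose extract. The 4 comparisons share the same vehicle libraries, so they are not independent. At an unadjusted p under 0.05 limma had 1431 genes higher and 87 lower for high-dose cymopol. It had 448 higher and 206 lower for low-dose cymopol, 1212 higher and 117 lower for high-dose extract, and 128 higher and 323 lower for low-dose extract. After scaling each library to its protein-coding sum, an alternative added after seeing the data, these counts were 1619 higher and 52 lower, 853 and 209, 1752 and 84, and 696 and 293 in the same order, so that for low-dose extract more genes were then higher than lower. The 1 added before the log weighs less after that scaling, which multiplied FPKM by 6.95 (vehicle replicate 4) to 153 (low-dose extract replicate 26). By size of difference on FPKM as deposited, 10 of all genes tested stood above Tff3 for high-dose cymopol, 3 for low-dose cymopol, 5 for high-dose extract and 38 for low-dose extract. A voom fit on fragments estimated from the deposited intervals did call Tff3 for high-dose cymopol (log2 difference 3.92, adjusted p = 0.0386) and for high-dose extract (4.03, adjusted p = 0.0233), both higher than in the vehicle. That fit called 136 genes (1.18%) for high-dose cymopol and 146 (1.27%) for high-dose extract, in either direction.

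The estimated fragments show how much sequence stands behind these values. An estimated 106, 142 and 121 fragments of Tff3 were sequenced in the high-dose cymopol libraries, 20, 39 and 74 in the low-dose cymopol libraries, 50, 386 and 89 in the high-dose extract libraries and 0, 67 and 23 in the low-dose extract libraries. The vehicle libraries had 1, 7 and 0, or 8 in all. The share of protein-coding fragments, a measure added after seeing the data, was read as well. Per 100000 such fragments, Tff3 averaged 38.9 ± 2.39 with high-dose cymopol, 55.3 ± 13.4 with low-dose cymopol, 42.8 ± 22.6 with high-dose extract and 31.2 ± 30.8 with low-dose extract, against 1.66 ± 1.55 in the vehicle (SD, n = 3 each). The first 3 of these did not overlap the vehicle, where an exact two-sided permutation test of 3 against 3 gave p = 0.1, the smallest it can give. Low-dose extract overlapped it (exact permutation p = 0.4). Without overlap, 16.5% of all genes tested were higher on this scale with high-dose cymopol, 2.98% with low-dose cymopol, 17.5% with high-dose extract and 2.46% with low-dose extract. Every other member also averaged a larger share in each treated group than in the vehicle. Clca1 had 187 ± 127, 178 ± 151, 146 ± 100.1 and 107 ± 96.2 per 100000 against 24.8 ± 9.36 (SD, n = 3 each, same order of groups). Clca1 did not overlap the vehicle at either cymopol dose or with high-dose extract, nor did Fcgbp at either cymopol dose, nor Muc2 with low-dose cymopol and with low-dose extract. Fcgbp overlapped the vehicle at both cymopol doses once further pieces of its exons, listed apart from the gene in some libraries, were added, which put vehicle replicate 5 at 521 per 100000.

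**Figure D2:**
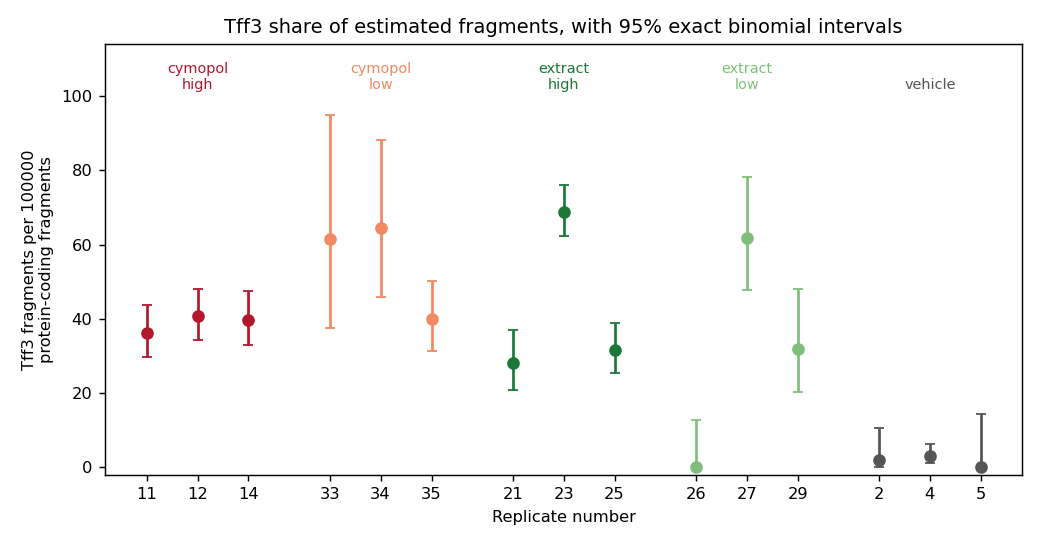
Tff3 fragments per 100000 protein-coding fragments (vertical axis) in each library (horizontal axis, replicate number), with 95% Clopper-Pearson intervals that cover counting error only. The lower bound in 11 of the 12 treated libraries lies above the upper bound of every vehicle library, and replicate 26 of low-dose extract is at 0.

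Depth limits the vehicle values unequally. The deepest vehicle library, replicate 4, had 7 Tff3 fragments of 228026, or 3.07 per 100000 (95% Clopper-Pearson interval 1.23 to 6.32, counting error only). Replicate 5 had 0 of 25527, which allows up to 11.8 per 100000, and low-dose extract replicate 26 had 0 of 29095, which allows up to 10.3. The lowest treated value above 0 was 28.0 per 100000, in high-dose extract replicate 21, above the upper bound of vehicle replicate 4. Other properties of the vehicle libraries moved with Tff3. Protein-coding genes with up to 1000 exonic bases, of which 240 were tested, had a median log2 difference from the vehicle of 1.52 for high-dose cymopol, 0.77 for low-dose cymopol, 1.36 for high-dose extract and 0.17 for low-dose extract. The medians over protein-coding genes with more than 4000 exonic bases were 0.70, 0.15, 0.59 and -0.29 in the same order. Among those 240 short genes, 0 had a larger difference than Tff3 for either cymopol dose or for high-dose extract, and 1 had for low-dose extract. The part that these library properties play in the Tff3 difference was not tested.

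Muc2 had the highest FPKM of the 7 genes in all 15 libraries. The values were 534, 593 and 161 FPKM with high-dose cymopol, 93.9, 399.9 and 362 with low-dose cymopol, 485 (replicate 21), 278 and 324 with high-dose extract, 28.2, 488 and 405 with low-dose extract, and 48.6, 189 and 246 in the vehicle. Only high-dose extract lay wholly above the vehicle, and the lowest library of each of the other treated groups fell within or below the vehicle range. The log2 difference from the vehicle was 1.49 ± 1.26 for high-dose cymopol (limma adjusted p = 0.598), 0.86 ± 1.26 for low-dose cymopol (0.963), 1.41 ± 1.26 for high-dose extract (0.665) and 0.44 ± 1.26 for low-dose extract (1.00), and the low-dose extract value turned negative without vehicle replicate 2 (-0.27). Tff3 was also set against Muc2 within each library. It stood at 13.5%, 23.4% and 63.8% of the Muc2 FPKM with high-dose cymopol, 42.9%, 33.2% and 26.5% with low-dose cymopol, 11.3%, 77.6% and 17.1% with high-dose extract and 0%, 18.8% and 13.5% with low-dose extract. In the vehicle it stood at 0.835%, 4.45% and 0%. This ratio, which was chosen after the values were seen and which does not change with library scaling, lay above the vehicle in every library of both cymopol doses and of high-dose extract (exact permutation p = 0.1 for each, two-sided). No share over all genes is available for this ratio. Tff3 has 493 exonic bases and Muc2 7127, and short genes as a class differed more from the vehicle than long ones. Library scaling does not remove that difference between short and long genes.

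The Muc2 gene, on the plus strand at chr7:141690340-141754693, was listed in the files as 5 separate pieces. In 12 of the 14 libraries that list it, piece 3, at chr7:141702097-141702775, had the highest FPKM of the 5. Piece 3 has 241 exonic bases, against 2690 in piece 1 and 2926 in piece 5. In vehicle replicate 2 it held an estimated 61 fragments, against 157 in piece 1 and 383 in piece 5. The part that its short length plays in its FPKM was not tested. The transcript fragment annotated at piece 3 is 241 bases long and marked incomplete. Sugars are attached to threonine in the mucin domains of MUC2, and the piece is printed to show where its sequence becomes rich in the triplet ACC, each such triplet, in any reading frame, being in capitals. ACC is 1 of the codons for threonine, and it occurs 2 times in the first 120 bases and 8 times in the rest.
Muc2: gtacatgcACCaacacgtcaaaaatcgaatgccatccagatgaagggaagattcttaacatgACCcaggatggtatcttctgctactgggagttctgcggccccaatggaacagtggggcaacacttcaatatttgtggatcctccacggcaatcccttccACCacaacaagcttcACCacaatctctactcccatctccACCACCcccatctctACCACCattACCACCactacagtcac

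The gene's value is the mean, weighted by exonic length, of pieces 1, 2 and 5, which all 15 libraries list. The slope along the gene was described for each library, with no test and no share over all genes. The FPKM of the first piece over that of the last was 0.429, 0.936 and 0.848 with high-dose cymopol, 0.607, 0.548 and 0.849 with low-dose cymopol, 0.973, 1.04 and 0.487 with high-dose extract and 1.71, 0.659 and 0.740 with low-dose extract. In the vehicle it was 0.180, 0.450 and 0.317. Of the 12 treated libraries, 11 were above every vehicle library, and high-dose cymopol replicate 11, at 0.429, was not. A low ratio means less signal at the 5′ end, and the part that RNA integrity plays in the level of any member was not tested.

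**Figure D3:**
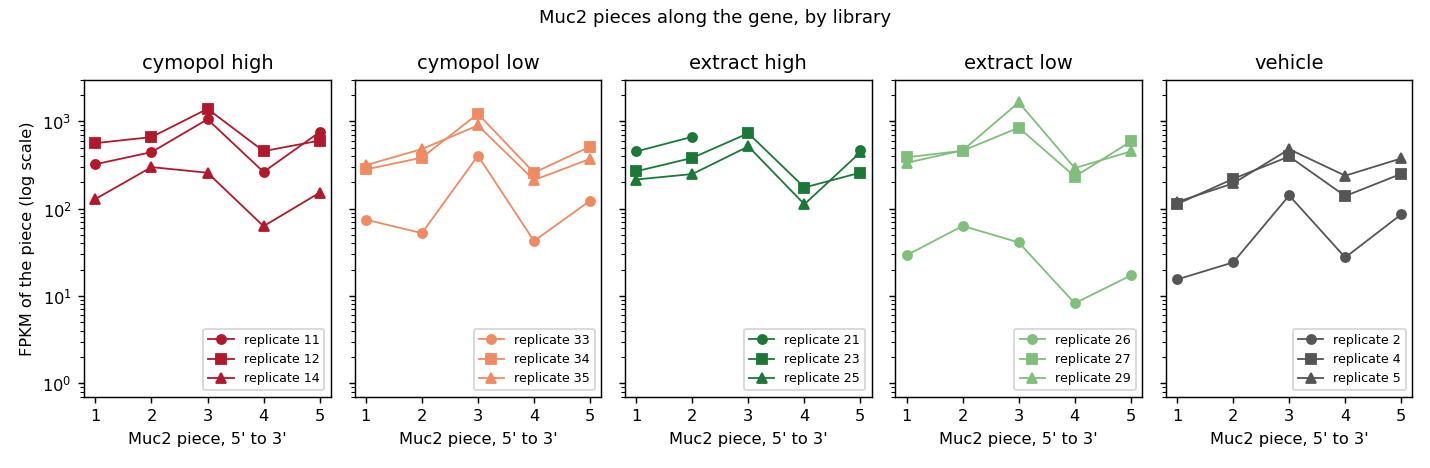
FPKM (vertical axis, log scale) of the 5 Muc2 pieces in order from the 5′ to the 3′ end (horizontal axis), 1 panel per group and 1 line per library. High-dose extract replicate 21 lists no separate pieces 3 and 4, and piece 1 lies below piece 5 in all 3 vehicle libraries, with ratios of 0.180, 0.450 and 0.317.

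Spink4 encodes a Kazal-type serine protease inhibitor. It had 98.8, 98.97 and 29.6 FPKM with high-dose cymopol, 0, 43.7 and 51.1 with low-dose cymopol, 52.6, 78.6 and 6.66 with high-dose extract and 3.06, 12.2 and 43.4 with low-dose extract, against 0, 0 and 45.5 in the vehicle. Vehicle replicates 2 and 4 were listed at 0, while replicate 5 overlapped all treated groups on an estimated 3 fragments. In vehicle replicate 4, 0 fragments of 228026 allow up to 1.32 per 100000, and the high-dose cymopol libraries had 45.5, 23.9 and 5.25 per 100000. The log2 difference from the vehicle was 4.23 ± 1.51 for high-dose cymopol (limma adjusted p = 0.291) and 3.15 ± 1.51 for high-dose extract (0.421). It was 1.88 ± 1.51 for low-dose cymopol (0.933) and 1.89 ± 1.51 for low-dose extract (1.00). At an unadjusted p under 0.05, 2 of the 7 members, Tff3 and Spink4, were higher for high-dose cymopol, where 12.4% of all genes were. There was 1 member for low-dose cymopol (3.89% of all genes) and 1 for low-dose extract (1.11%), Tff3 in both, and there were 3 for high-dose extract (10.5%), Tff3, Spink4 and Spdef. After scaling to the protein-coding sum it was Tff3, Spink4 and Fcgbp for high-dose cymopol (14.1% of all genes), Tff3 for low-dose cymopol (7.41%) and Tff3, Spink4 and Spdef for high-dose extract (15.2%). For low-dose extract it was then Muc2 and Spink4 (6.05%), and not Tff3.

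On FPKM as deposited, Fcgbp and Clca1 were highest in the same library of every group. Fcgbp (chr7:28071236-28120862, plus strand) encodes the IgG Fc binding protein that links to MUC2 in mucus, and Clca1 (chr3:145003817-145032776, minus strand) encodes a secreted metalloprotease that processes mucus. Fcgbp had 70.3, 262 and 94.6 FPKM with high-dose cymopol, 21.8, 182 and 69.2 with low-dose cymopol, 59.7, 243 and 63.0 with high-dose extract, 10.5, 62.2 and 69.6 with low-dose extract and 8.88, 37.6 and 54.8 in the vehicle. Clca1 had 60.5, 272 and 48.0 FPKM with high-dose cymopol, 18.1, 183 and 65.9 with low-dose cymopol, 43.2, 255 and 44.4 with high-dose extract, 0.978, 58.0 and 104.2 with low-dose extract and 6.10, 23.5 and 46.9 in the vehicle. Replicates 12, 34, 23, 29 and 5 were the highest of their groups for both genes. In replicates 12, 23 and 34 Clca1 reached 45.9%, 91.5% and 45.8% of the Muc2 FPKM, against 12.5%, 12.4% and 19.1% in the vehicle libraries.

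Without overlap with the vehicle, both genes were higher with high-dose cymopol, but Fcgbp alone of the pair with high-dose extract. The log2 difference for high-dose cymopol was 2.13 ± 1.29 for Fcgbp (limma adjusted p = 0.465) and 2.21 ± 1.42 for Clca1 (0.492). For high-dose extract it was 1.83 ± 1.29 for Fcgbp (0.578) and 1.98 ± 1.42 for Clca1 (0.586). For low-dose cymopol it was 1.26 ± 1.29 for Fcgbp (0.954) and 1.61 ± 1.42 for Clca1 (0.937), and for low-dose extract 0.42 ± 1.29 and 0.19 ± 1.42 (1.00 for both). In vehicle replicates 2, 4 and 5, low-dose extract replicate 26 and low-dose cymopol replicate 33, but in no other library, further pieces of Fcgbp exons were listed apart from the gene. With them added, vehicle replicate 5 had 68.6 FPKM, which lies above high-dose extract replicates 21 and 25, so that Fcgbp then overlapped between high-dose extract and the vehicle. Without overlap, 3 members were higher with high-dose cymopol (Tff3, Fcgbp and Clca1), where 19.5% of all genes tested were, and 3 with high-dose extract (Muc2, Tff3 and Fcgbp), where 19.3% were. With low-dose cymopol it was Tff3 alone, against 3.88% of all genes, and with low-dose extract 0 members, against 1.23%.

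Agr2 (chr12:35992907-36004087, plus strand) overlapped between the vehicle and all treated groups. It had 33.1, 95.3 and 29.6 FPKM with high-dose cymopol, 14.4, 30.0 and 47.0 with low-dose cymopol, 50.8, 37.3 and 12.5 with high-dose extract, 0, 39.2 and 23.9 with low-dose extract and 2.17, 53.1 and 46.0 in the vehicle. Vehicle replicates 4 and 5 lay above most treated libraries, and replicate 2 below all but low-dose extract replicate 26. The log2 difference from the vehicle was 1.21 ± 1.38 for high-dose cymopol (limma adjusted p = 0.697), 0.50 ± 1.38 for low-dose cymopol (1.00), 0.58 ± 1.38 for high-dose extract (0.884) and -1.003 ± 1.38 for low-dose extract (1.00). Without vehicle replicate 2 the first 3 turned to -0.12, -0.83 and -0.75, and without low-dose extract replicate 26 the last turned to 0.66.

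Spdef (chr17:27714352-27728955, minus strand) was the lowest of the 7 in 9 of the 15 libraries. It had 7.28, 4.69 and 7.87 FPKM with high-dose cymopol, 1.00, 4.86 and 25.0 with low-dose cymopol, 14.9, 19.3 and 12.8 with high-dose extract, 2.19, 11.1 and 0 with low-dose extract and 0, 21.5 and 0 in the vehicle. Vehicle replicate 4 was above nearly all treated libraries and the other 2 vehicle libraries were listed at 0. Those zeros allow up to 5.73 per 100000 protein-coding fragments in replicate 2 and up to 11.8 in replicate 5. Treated libraries had 0 to 19.9 per 100000. The log2 difference from the vehicle was 2.54 ± 1.23 for high-dose extract (limma adjusted p = 0.423) and 1.41 ± 1.23 for high-dose cymopol (0.607). It was 1.25 ± 1.23 for low-dose cymopol (0.952) and 0.26 ± 1.23 for low-dose extract (1.00). Without the libraries with over 20% of their fragments in intergenic loci, which leaves replicate 4 as the only vehicle library, the 4 values turned to -0.45, -1.59, -1.74 and -2.69.

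**Figure D4:**
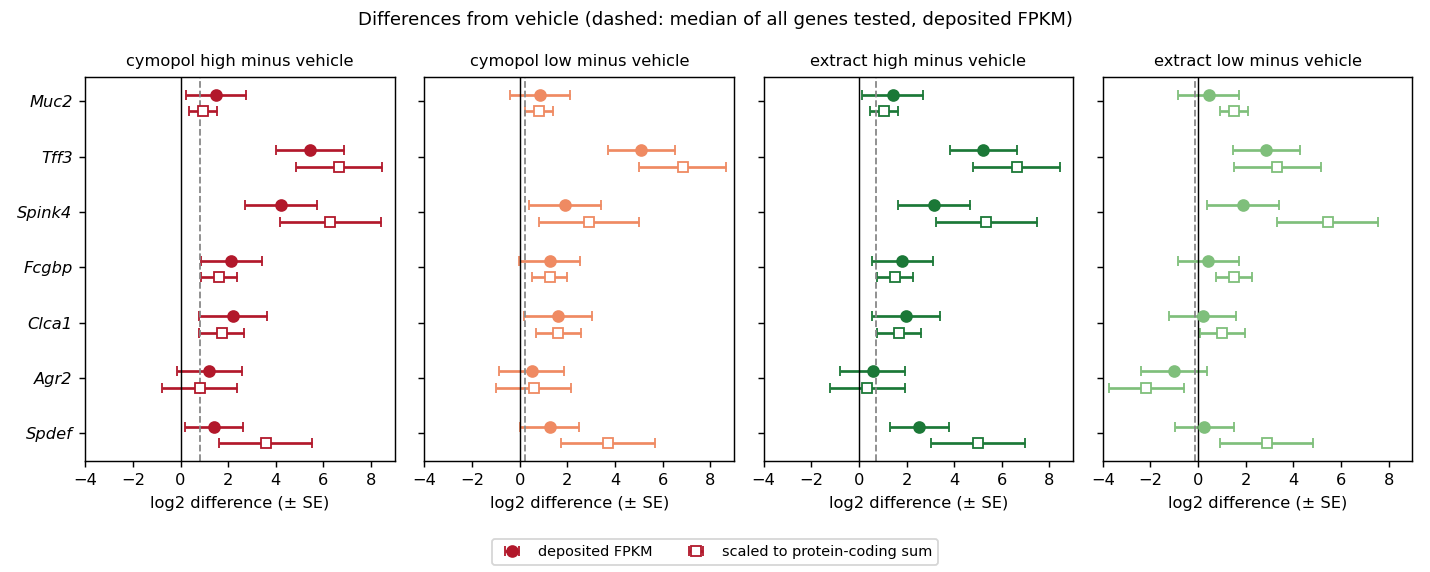
Log2 difference from the vehicle ± SE (horizontal axis) for the 7 genes (vertical axis), 1 panel per treated group, from FPKM as deposited (filled) and after scaling each library to its protein-coding total (open). The dashed line is the median over the 11506 genes tested on the deposited scale, and Tff3 lies farthest to the right in each panel on that scale, at 5.43, 5.10, 5.22 and 2.87.

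The members were read against the shift of all genes, since the FPKM of the libraries do not sum alike. Over protein-coding genes the sum ranged from 6529, in low-dose extract replicate 26, to 143945, in vehicle replicate 4. The median log2 difference of the 7 members from the vehicle was 2.13 for high-dose cymopol, where the median of all genes tested was 0.81. It was 1.26 against 0.23 for low-dose cymopol, 1.98 against 0.71 for high-dose extract and 0.42 against -0.14 for low-dose extract. All 7 differences were above 0 in the first 3, and 6 of 7 in the last. Leaving out 1 library at a time, the members' median lay between 1.39 and 2.64 for high-dose cymopol, 0.52 and 2.13 for low-dose cymopol, 1.22 and 2.41 for high-dose extract and -0.32 and 1.75 for low-dose extract. The lowest of each was without vehicle replicate 2. Without replicate 33 of low-dose cymopol the median there was 2.13, and without replicate 34 it was 0.82. For low-dose extract it was 1.75 without replicate 26, 0.70 without vehicle replicate 4 and 0.89 without vehicle replicate 5, and it turned negative without replicate 27 (-0.28), replicate 29 (-0.04) or vehicle replicate 2. After scaling to the protein-coding sum, the medians of members and of all genes were 1.72 and 1.49 for high-dose cymopol, 1.62 and 0.51 for low-dose cymopol, 1.68 and 1.53 for high-dose extract and 1.51 and 0.28 for low-dose extract. Clca1 with high-dose cymopol and Muc2 with high-dose extract then overlapped the vehicle. Spdef with high-dose extract, and Muc2 and Fcgbp with low-dose extract, then lay above it without overlap, as 21% and 4.57% of all genes did in those comparisons. With its separate exonic pieces added, Fcgbp overlapped at both extract doses, since the lowest library had 704 with high-dose extract and 791 with low-dose extract on that scale, against 820 in vehicle replicate 5. On that scale, 18.9% of all genes for high-dose cymopol and 5.81% for low-dose cymopol were higher without overlap. Tff3 still did not overlap the vehicle at either cymopol dose or with high-dose extract, with log2 differences of 6.66 ± 1.82, 6.84 ± 1.82 and 6.63 ± 1.82 (limma adjusted p = 0.154, 0.202 and 0.143). Because the 1 added before the log weighs less on scaled values, genes listed at 0 tend to have wider differences there. Spdef for high-dose cymopol, for example, had 3.57 against 1.41 on FPKM. Sizes of difference on the 2 scales are therefore not comparable for such genes.

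The doses of the agents are in different units and are not matched. Between doses and between agents no member passed the threshold. For high-dose cymopol against low-dose cymopol, the members' median log2 difference was 0.63 and that of all genes 0.59, with 1 gene called (0.00869%). For high-dose extract against low-dose extract it was 1.58, against 0.89 for all genes, also with 1 gene called (0.00869%). For cymopol against the extract it was 0.23 at high doses (all genes 0.11, 2 called, 0.0174%) and 0.99 at low doses (all genes 0.39, 0 called, 0%). After scaling to the protein-coding sum the members' median was 0.12 between cymopol doses (all genes 0.92), 0.67 between extract doses (1.23), 0.04 between agents at high doses (-0.03) and 0.61 at low doses (0.19). For both dose comparisons the members' median then lay below that of all genes, whereas on the deposited scale it lay above. The number of members above 0 was then 5, 4, 5 and 4 of 7 in the same order, against 7, 7, 6 and 6 on the deposited scale. Tff3 itself differed by 0.33 ± 1.41 between the cymopol doses (limma adjusted p = 0.970), 2.35 ± 1.41 between the extract doses (0.638), 0.21 ± 1.41 between high-dose cymopol and high-dose extract (1.00) and 2.23 ± 1.41 between low-dose cymopol and low-dose extract (1.00). On FPKM, Spdef was the only member whose groups did not overlap between doses or agents. It was higher with high-dose extract than with low-dose extract (log2 difference 2.28 ± 1.23, adjusted p = 0.638), as 20.9% of all genes were without overlap, and it overlapped after scaling to the protein-coding sum. It was lower with high-dose cymopol than with high-dose extract (-1.14 ± 1.23, adjusted p = 1.00), as 2.4% of all genes were. On the share of protein-coding fragments Muc2 was lower with high-dose extract than with low-dose extract, at 1363 ± 731 against 2886 ± 554 per 100000 (SD, n = 3 each, exact permutation p = 0.1, two-sided), as 1.29% of all genes were without overlap.

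Genes that act with the members were described from fixed lists. Of 7 tested goblet cell transcription factors, 12 other goblet cell genes, 20 genes of mucin O-glycosylation, 19 of protein folding and export in the endoplasmic reticulum and 7 of granule release, none passed the limma threshold against the vehicle in any treated group (0 higher and 0 lower). At an unadjusted p under 0.05 the numbers higher for high-dose cymopol were 1, 4, 3, 5 and 2 in that order, where 12.4% of all genes were, and for high-dose extract 1, 3, 3, 5 and 2, where 10.5% of all genes were, with 0 lower. The medians were 1.36, 1.54, 1.27, 1.76 and 1.55 for high-dose cymopol, where the median of all genes was 0.81, and 1.67, 1.51, 1.49, 1.503 and 1.36 for high-dose extract, where it was 0.71.

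The genes given next were named for the smallest p-values of their lists, except Atoh1 and Zg16, which were to be given whatever their p-value. Klk1, a tissue kallikrein made by colonic goblet cells, had 17.5, 150.2 and 7.52 FPKM with high-dose cymopol and 51.6, 92.3 and 21.4 with high-dose extract, against 0.552, 1.69 and 0 in the vehicle. Its log2 difference was 4.16 for high-dose cymopol (limma adjusted p = 0.254) and 4.90 for high-dose extract (0.269). Ern2, the endoplasmic reticulum stress sensor of mucus-secreting cells, had 13.4, 21.3 and 6.28 FPKM with high-dose cymopol and 6.02, 29.0 and 4.78 with high-dose extract, against 0.111, 0 and 1.93 in the vehicle (log2 differences 3.16 and 2.85, adjusted p = 0.255 and 0.335). Creb3l1, a transcription factor of secretory cells, had 14.0, 32.5 and 2.80 FPKM with high-dose cymopol and 17.6, 13.8 and 5.85 with high-dose extract, against 0.559, 0.708 and 1.37 in the vehicle (2.75 and 2.74, adjusted p = 0.314 and 0.375). Atoh1, which commits progenitors to the secretory fate, had 4.30, 8.45 and 1.99 FPKM with high-dose cymopol and 4.00, 5.67 and 3.56 with high-dose extract, against 0, 3.70 and 0 in the vehicle, and vehicle replicate 4 lay within both high-dose ranges. Zg16 had no value in some of the libraries and was not tested.

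For synthesis of the mucin's sugars, Uap1, which makes the UDP-N-acetylhexosamines, had a log2 difference of 3.01 for high-dose cymopol (limma adjusted p = 0.291) and 3.67 for high-dose extract (0.274). Galnt7, which extends mucin-type O-glycosylation, had 2.33 (0.356) and 3.47 (0.294). Of the genes of granule release, Mep1b, the protease meprin beta that frees mucus from the cells, had 3.65 (0.225) and 2.64 (0.383). Each of the 3 was listed at 0 in 2 of the vehicle libraries, so each needed treated libraries to pass the filter. Each was also named for its small p, so these differences are no support for a change. Sec61b, a subunit of the translocation channel of the endoplasmic reticulum, Sdf2l1, part of a chaperone complex there, and Kcnn4, a potassium channel, were listed at 0 in all 3 vehicle libraries. These genes passed the filter through treated libraries alone, so no difference is given for them.

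Markers of the whole epithelium had log2 differences of the same sign as the members at the high doses, and so did those of smooth muscle. The summed FPKM of 12 epithelial genes was 1124.7 to 1625.9 with high-dose cymopol, 296 to 1272.1 with low-dose cymopol, 725 to 1527.3 with high-dose extract, 37.6 to 737 with low-dose extract and 71.5 to 805 in the vehicle. All 12 were above 0 in the log2 difference for both high doses, with medians of 1.96 for high-dose cymopol and 1.42 for high-dose extract, and none passed the limma threshold. For low-dose cymopol it was also 12 of 12 (median 0.95), and for low-dose extract 4 of 12 (-0.33). Absorptive colonocyte genes, 9 in all, summed to 886 to 1404 FPKM with high-dose cymopol and 298 to 2119 with low-dose cymopol. They summed to 919 to 1423 with high-dose extract, 48.8 to 1285 with low-dose extract and 119 to 2441 in the vehicle. Their highest sum was thus in a vehicle library, and every treated group overlapped the vehicle. Of 7 smooth muscle genes, 7 were above 0 for both high doses, with medians of 1.32 for high-dose cymopol and 0.94 for high-dose extract. Of 6 fibroblast genes it was 6 for high-dose cymopol (0.93) and 5 for high-dose extract (0.32), and of 6 adipocyte genes 6 (1.93) and 3 (-0.06). Epcam, the epithelial adhesion molecule, had 61.3, 129.8 and 189 FPKM with high-dose cymopol and 56.4, 129 and 59.2 with high-dose extract, against 2.82, 62.1 and 68.5 in the vehicle. As a share of the epithelial sum the members together were at 77.9%, 90.9% and 29.1% with high-dose cymopol, 64.0%, 76.7% and 56.3% with low-dose cymopol, 65.9%, 73.8% and 71.5% with high-dose extract and 119%, 108% and 95.2% with low-dose extract. In the vehicle they were at 92.6%, 46.1% and 54.6%. By that measure low-dose extract was above the vehicle without overlap and the other 3 groups overlapped it. Tff3 alone was at 6.43%, 8.61% and 6.33% of the epithelial sum with high-dose cymopol, 13.6%, 10.4% and 7.56% with low-dose cymopol, 4.76%, 14.1% and 7.65% with high-dose extract and 0%, 12.96% and 7.43% with low-dose extract. In the vehicle it was at 0.568%, 1.17% and 0%, below every library of the first 3 groups (exact permutation p = 0.1 for each, two-sided, the smallest possible). These shares of the epithelial sum were chosen after the values were seen, and how many of all genes would do the same is not available.

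Markers of other cell types also differed between the vehicle libraries. The summed FPKM of 5 B and plasma cell genes was 0.555 to 18.6 with high-dose cymopol, 0 to 7.50 with low-dose cymopol, 0.644 to 8.07 with high-dose extract and 0.113 to 0.758 with low-dose extract. It was 0, 212 and 9.57 in the vehicle libraries, so vehicle replicate 4, the deepest of the 3, stood out, and replicate 2 had all 5 genes at 0. The 7 smooth muscle genes summed to 454 to 1024.2 with high-dose cymopol, 480 to 767 with low-dose cymopol, 313 to 731 with high-dose extract, 34.1 to 763 with low-dose extract and 65.6 to 871 in the vehicle, overlapping in all comparisons with it. The part of cell composition in the members' levels was not tested.

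The members did not vary as 1 block. Over the 15 libraries, on log2(value + 1) after scaling to the protein-coding sum, Pearson's r between pairs of members ran from -0.15 (Fcgbp and Agr2) to 0.73 (Spink4 and Fcgbp). Tff3 and Clca1 had 0.65, Tff3 and Agr2 0.61, and Tff3 and Muc2 0.24. These values describe 15 libraries that share the depth differences and the group structure given above. The 10 genes outside the set whose values were most like the mean of the 7 members, on log2(FPKM + 1) after median-of-ratios scaling of the same libraries, were Sept7 (r = 0.91), Creg1, BC030870, Irf2bpl, Golm1, Hsd11b2, Gm22442, Rab25, Adss and Atp5mpl (0.85). The median r over the 11499 other genes tested was 0.12. Sept7, Creg1, BC030870, Gm22442, Rab25 and Atp5mpl were listed at 0 in every vehicle library, so they passed the filter through treated libraries alone. Vehicle replicates 2 and 5 held an estimated 52322 and 25527 protein-coding fragments, but replicate 4 held 228026. The part that depth plays in the likeness of these genes to the members was not tested.

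The depth behind all values was uneven between groups. Protein-coding genes held an estimated 292499 to 347683 fragments per library with high-dose cymopol, 32549 to 185554 with low-dose cymopol, 178772 to 560506 with high-dose extract, 29095 to 108678 with low-dose extract and 25527 to 228026 in the vehicle. Of all fragments, 65.7% to 66.4% lay in genes with high-dose cymopol, 45.3% to 72.5% with low-dose cymopol, 57.2% to 66.2% with high-dose extract, 33.9% to 67.0% with low-dose extract and 8.60% to 47.0% in the vehicle. The part that these differences play in the members' levels was not tested.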

How the data were processed

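RNA was depleted of ribosomal RNA from 90 ng of total RNA, per the labels' protocols, and the submitters' processing notes name the aligner STAR 2.4.0j and the build GRCm38.p4. The authors deposited FPKM with lower and upper bounds, 1 table per library, in the column layout of a Cufflinks gene tracking table, per the file headers. Neither the quantifier's settings nor the annotation used is stated. Some genes appear under Ensembl identifiers and others as loci assembled separately in each library. Fcgbp, Clca1 and Spdef are assembled loci in all 15 libraries. Such a locus was given to a GENCODE M21 gene when they were mutual best matches and overlapped by 0.5 or more of their joint span.

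The files hold no counts, so fragments were estimated from the interval width, as 2 Poisson standard deviations, and are approximate. Binomial intervals (95%, Clopper-Pearson) and the limit for a count of 0 (3 counts) cover counting error only, since reads without molecular identifiers are not independent molecules.

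Values were analysed as log2(FPKM + 1) with limma 3.58.1 in R 4.3.3, 1 mean per group over all 15 libraries, with an intensity trend. Of 43318 genes listed in every one of the 15 libraries, the 11506 that reached 1 FPKM in 3 or more were tested, in 8 comparisons, two-sided, at a Benjamini-Hochberg adjusted p of 0.05. All 7 members had a value in all 15 libraries and passed that filter. The fit was tested on simulated data. Alternatives changed the pseudocount, filter, scaling, row matching, spread, weights, test or libraries.

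The members and lists were chosen with earlier results of these data known. Other genes were named by a rule: the 4 with the smallest unadjusted p per list at either high dose, of which a selection is printed, plus Atoh1, Zg16 and Epcam, and the 10 most like the members' mean.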

Additional observations from a re-analysis of the deposited data

How the results depend on the processing

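No paired analysis was possible because the groups share no replicate numbers. The number of members called stayed at 0 in all 8 comparisons under all alternatives other than voom. Against the vehicle, voom called 1 member, Tff3, for high-dose cymopol, where it called 1.18% of all genes tested. It also called 1, Tff3, for high-dose extract, where it called 1.27% of all genes. Leaving out 1 replicate at a time, the log2 difference of Tff3 lay between 4.81 and 6.43 for high-dose cymopol, 4.48 and 6.10 for low-dose cymopol, 4.57 and 6.22 for high-dose extract and 1.66 and 4.93 for low-dose extract. Over the other alternatives it lay between 3.16 and 7.07, 2.88 and 6.84, 2.99 and 6.85, and 0.69 and 4.77 in the same order, with limma or voom adjusted p from 0.0233 to 1. All 80 alternatives kept its sign. The members' median, leaving out 1 replicate at a time, lay between -0.03 and 1.04 between cymopol doses, 0.29 and 2.47 between extract doses, -0.25 and 0.86 between agents at high doses and -0.16 and 1.91 at low doses.

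Signs that turned were those of differences that had not passed the threshold. In differences from the vehicle, without vehicle replicate 2 Agr2 turned to -0.12 (high-dose cymopol), -0.83 (low-dose cymopol) and -0.75 (high-dose extract), and for low-dose extract Muc2 turned to -0.27, Fcgbp to -0.32, Clca1 to -0.57 and Spdef to -0.49. Without vehicle replicate 5 Spdef turned to -0.49 for low-dose extract. Without its replicate 26, Agr2 turned to 0.66 there. Without its replicate 27, Muc2 turned to -0.28, Clca1 to -0.49 and Spdef to -0.66. Without its replicate 29, Muc2 turned to -0.15, Fcgbp to -0.04 and Clca1 to -0.91. Without libraries over 20% intergenic, Agr2 turned to -0.22, -0.93 and -0.85 and Spdef to -1.59, -1.74 and -0.45 (high-dose cymopol, low-dose cymopol and high-dose extract), and Spdef to -2.69 (low-dose extract). Vehicle replicate 4 is then a lone sample assumed to vary like the other groups. With annotated rows only and absent rows at 0, Spink4 turned to -0.019 (low-dose cymopol), Muc2 to -1.39 (high-dose extract) and Agr2 to 2.77 (low-dose extract). Agr2 turned to -0.35 with median-of-ratios scaling (high-dose extract). For low-dose extract, Clca1 turned to -0.026 with pseudocount 0.1, Spdef to -0.10 with pseudocount 10, and Muc2 to -0.26 by its 3′ piece alone. Leaving out 1 replicate at a time, the highest value was 1.93, 1.22 and 1.30 for Agr2 (high-dose cymopol, low-dose cymopol and high-dose extract). With low-dose extract the highest was 1.75 for Muc2, 1.27 for Fcgbp, 1.96 for Clca1 and 1.76 for Spdef, and the lowest for Agr2 was -2.33. The causes were not tested.

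Counts of all genes called moved in 75 of 168 alternatives, given in the order high-dose cymopol, low-dose cymopol, high-dose extract and low-dose extract against the vehicle, and the cause was not tested. Without intergenic-rich libraries they were 162, 351, 206 and 251, and after protein-coding scaling 8, 21, 9 and 7. Median-of-ratios scaling gave 0, 2, 3 and 1. Voom gave 136 (1.18% of genes tested) and 146 (1.27%) for the high doses, pseudocount 0.1 gave 7 and 3 (1 for low-dose extract), no filter gave 1 and 6, and the stricter filter 18 and 3 (1 for low-dose extract). Quantile normalization gave 2 for low-dose cymopol and 2 for high-dose extract. With pseudocount 10 or annotated rows, high-dose cymopol had 0, and with the compared groups alone both high doses had 0. Leaving out replicates gave 0 to 8, 0 to 9, 1 to 8 and 0 to 8. Between cymopol doses the count was 0 to 4 and leave-one-out 0 to 3. Between extract doses it was 0 (compared groups alone), 2 (voom), 3 (no filter) or 13 (array weights). Between agents at the high doses it was 1, 4 (voom), 7 (array weights) or 9 (no filter), and leave-one-out 1 to 3. Protein-coding scaling, the share of protein-coding fragments, added exonic pieces and the 3′ piece of Muc2 were chosen after seeing the data. Annotated rows alone gave no value for the members. Single-member differences between doses and agents other than those of Spdef were not recomputed.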
